A study of Mus musculus with 6 samples.

Results

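The genes described here are 9 genes that mark or build lymphoid follicles, the chemokines Cxcl13, Ccl19, and Ccl21a, the chemokine receptors Cxcr5 and Ccr7, the addressin Madcam1, the B cell and follicular dendritic cell receptors Cr2 and Fcer2a, and the transcription factor Bcl6. They were found by symbol among the 27546 genes of the deposited RNA-Seq table. They had been selected on their FPKM values in these same libraries, with the difference between the groups known, so their levels and fold changes are given as a description, with no test. Distal colon of 3 Gm31629-/- mice and 3 WT littermates was sequenced, with a library for each mouse. The Gm31629-/- mice carry a constitutive deletion at the long noncoding RNA gene Gm31629, which is not limited to the epithelium. All mice were C57BL/6 by the labels (C57BL/6J in the methods) and 8 weeks old, drank 3% dextran sulfate sodium (DSS, which damages the epithelium of the colon) for 7 days, and were killed on day 8. Both groups therefore had the same DSS exposure, and the comparison is of genotypes under DSS without untreated mice. The level of Gm31629 itself was not analysed here.

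Lymphoid follicles of the colon, the colonic patches and the smaller isolated follicles, are clusters of B cells held by stromal cells. In lymphoid tissue, lymphotoxin and related signals act on stromal organizer cells, which then make CXCL13, CCL19, and CCL21. CXCL13 draws cells that carry its receptor CXCR5, chiefly B cells and follicular helper T cells, while CCL19 and CCL21 draw naive T cells and dendritic cells that carry CCR7. MAdCAM-1 on gut venules binds the integrin α4β7 of lymphocytes that home to the intestine. CD21, encoded by Cr2, and CD23, encoded by Fcer2a, are found on mature B cells and on follicular dendritic cells, and BCL6 directs the germinal center program of B cells and follicular helper T cells.

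The libraries held 18005847 to 18795106 mapped fragments each, as recovered from the FPKM values (fragments scaled to gene length and library depth). Epithelial genes of the labelled tissue were abundant, with Epcam, named after its values were seen, at 1109 ± 104 FPKM in Gm31629-/- mice and 1104 ± 85.1 in WT mice (mean ± SD, n = 3, as in all values below). In 1 library, that of Gm31629-/- mouse 1, transcripts of 4 Y-linked genes were present, with Eif2s3y at 15.4 FPKM, and Xist was at 0.0061 FPKM, whereas in the other 5 libraries those 4 genes were at 0 and Xist was at 8.35 to 13.8 FPKM. The labels used here give no sex, while the study's methods describe the mice as male, so the sex-linked transcripts of the other 5 libraries go against the methods, and values without Gm31629-/- mouse 1 are given below. Rescaling the libraries by their median ratio moved the median log2 fold change of all tested genes from 0.15 to −0.06.

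The promoters of the 3 members with the largest log2 fold changes on the log2(FPKM + 1) scale are shown first (with a pseudocount of 0.1 Ccl19, at 5.36, would stand above Madcam1, at 4.68), because these are the stromal and venular genes around which the follicle is described. Each is the stretch of up to 250 bases before the start of the gene in RefSeq (build GRCm38.p6), written 5′ to 3′ on the strand of the gene, and Ccl21a is given with 248 bases. The windows are chr5:95956689-95956938 on the plus strand for Cxcl13, chr4:42773994-42774241 on the minus strand for Ccl21a, and chr10:79664309-79664558 on the plus strand for Madcam1. Capitals mark matches to GGAGATTT or GGAGACTT, letters of the kind bound by noncanonical NF-κB in organizer chemokine promoters, and to GGGNNNNNCC, the outer letters and spacing of a κB element. Both strands were searched, and overlapping matches are run together.
Cxcl13: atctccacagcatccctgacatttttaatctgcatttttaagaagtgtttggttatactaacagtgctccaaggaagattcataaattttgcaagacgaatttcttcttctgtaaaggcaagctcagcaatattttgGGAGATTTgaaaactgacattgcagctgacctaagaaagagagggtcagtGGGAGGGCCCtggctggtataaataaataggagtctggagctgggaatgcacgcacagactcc
Ccl21a: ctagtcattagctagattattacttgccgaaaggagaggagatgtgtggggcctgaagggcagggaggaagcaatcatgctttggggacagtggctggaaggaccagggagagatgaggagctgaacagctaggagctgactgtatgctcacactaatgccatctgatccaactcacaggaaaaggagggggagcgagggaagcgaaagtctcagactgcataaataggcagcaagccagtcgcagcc
Madcam1: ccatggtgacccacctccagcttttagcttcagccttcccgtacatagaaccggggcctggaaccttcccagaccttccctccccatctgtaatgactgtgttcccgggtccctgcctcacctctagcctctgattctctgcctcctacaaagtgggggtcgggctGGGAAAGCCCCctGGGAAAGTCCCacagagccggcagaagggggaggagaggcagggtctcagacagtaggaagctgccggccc

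In the Cxcl13 window, GGAGATTT lay 113 to 106 bases before the start, GGGAGGGCCC 63 to 54 bases before it, and the TATA letters TATAAA 46 to 41 bases before it. The Madcam1 window held 4 overlapping matches to GGGNNNNNCC, among them GGGAAAGCCC at 84 to 75 bases and GGGAAAGTCC at 71 to 62 bases before the start. The Ccl21a window held none of these. GGAGATTT or GGAGACTT occurred in 2.09% of 32851 RefSeq windows of the same kind, GGGNNNNNCC in 45.8%, and TATAAA on the gene's strand in 7.59%. A window was found for 7 of the 9 members, all except Cxcr5 and Ccr7, and Cxcl13 was the member with a match to GGAGATTT or GGAGACTT. These motifs were chosen after the sequences had been read, and a match describes letters and not binding.

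All 9 members were higher in Gm31629-/- mice, with each of the 3 Gm31629-/- values above each of the 3 WT values. The same separation was found in 36.3% of the 14657 genes tested, and a separation in either direction in 57.8%, and nothing is read from the members' count because it was known when they were chosen. After rescaling by the median ratio it held in 8 of 9, with Fcer2a overlapping. The log2 fold changes ran from 0.46 to 5.23 with a median of 2.50, against 0.15 for all tested genes, on the log2(FPKM + 1) scale used for all log2 fold changes here, which understates the change of low genes. Without Gm31629-/- mouse 1, all 9 remained separated and the median was 2.74. In bulk tissue, more cells of a type and more RNA per cell cannot be told apart.

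**Figure D1:**
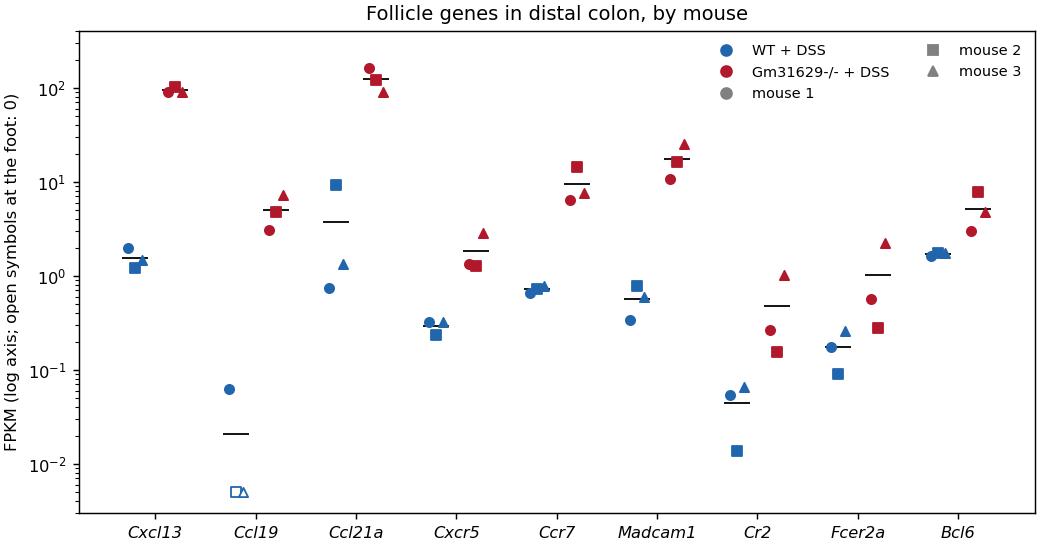
FPKM (log axis) of the 9 follicle genes in each of the 6 mice, with WT mice in blue, Gm31629-/- mice in red, a symbol shape for each mouse, a black bar for the group mean, and open symbols at the foot for values of 0. The 3 Gm31629-/- symbols sit above the 3 WT symbols for every gene, lie close together for Cxcl13 (90.1 to 102 FPKM), and spread widely for Fcer2a (0.280 to 2.25 FPKM).

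Cxcl13 (ENSMUSG00000023078, chromosome 5, 95956951 to 95961068, plus strand), the B cell chemokine, had the largest log2 fold change among the members, while Ccl19 had the larger ratio of means. Its level was 90.1, 102, and 91.0 FPKM in Gm31629-/- mice 1 to 3 and 1.97, 1.21, and 1.48 FPKM in WT mice 1 to 3, from 1906, 2164, and 1923 fragments against 42, 25, and 32. The lowest Gm31629-/- mouse was 45.6-fold above the highest WT mouse. The means were 94.4 ± 6.61 and 1.55 ± 0.389 FPKM, a 60.7-fold difference, with a log2 fold change of 5.23 (SE 0.14) that stayed between 5.13 and 5.35 when any mouse was left out. Cxcl13 was also the least variable member among Gm31629-/- mice, with a coefficient of variation of 7.01%. Its SD within that group on the log2 scale, 0.10, was larger than that of 10.1% of tested genes, whereas for the 7 other members that passed the filter on low values this share ran from 73.9% for Ccl21a to 90.9% for Fcer2a.

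Ccl21a (ENSMUSG00000094686, chromosome 4, 42772860 to 42773993, minus strand), a CCR7 ligand made by lymphoid stroma and lymphatic endothelium, had the highest mean of the members in both groups. By mouse, it stood above Cxcl13 in 2 of the 3 Gm31629-/- mice and above Bcl6 in 1 of the 3 WT mice, mouse 2. It was at 162, 121, and 89.6 FPKM in Gm31629-/- mice 1 to 3 and at 0.746, 9.26, and 1.35 FPKM in WT mice 1 to 3. WT mouse 2 stood well above the other WT mice but far below every Gm31629-/- mouse. The means were 124 ± 36.2 and 3.78 ± 4.75 FPKM, 32.8-fold apart, and the log2 fold change was 5.13 (SE 0.83), between 4.63 and 5.91 with any mouse left out. Mouse strains hold near-identical copies of Ccl21a and their reads may be split or shared, so its absolute level is uncertain.

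Ccl19 (ENSMUSG00000071005, chromosome 4, 42754525 to 42756577, minus strand), the other CCR7 ligand, was close to absent from WT libraries. It was at 3.07, 4.81, and 7.16 FPKM in Gm31629-/- mice, from 49, 77, and 114 fragments, and at 0.0623, 0, and 0 FPKM in WT mice, from a single fragment in WT mouse 1. A value of 0 allows up to 3 fragments in a library. The ratio of pooled fragments was 240.3, with an exact 95% interval of 42.7 to 9531 for counting error, and the log2 fold change was 2.50 (SE 0.29). The Ccl19 pseudogenes Ccl19-ps1 and Ccl19-ps3 were listed at 0.829 to 1.66 and at 0.336 to 1.17 FPKM in Gm31629-/- mice and at up to 0.170 FPKM and 0 in WT mice, so reads may be shared with them.

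The receptors of these ligands were also higher in Gm31629-/- mice. Cxcr5 (ENSMUSG00000047880, chromosome 9, 44511787 to 44561877, minus strand), the CXCL13 receptor, was at 1.32, 1.27, and 2.86 FPKM in Gm31629-/- mice and at 0.324, 0.233, and 0.319 FPKM in WT mice. Gm31629-/- mouse 3 was more than 2-fold above the other Gm31629-/- mice, and the groups were 6.21-fold apart with a log2 fold change of 1.08 (SE 0.25). Cxcr5 shares 110 of its 3332 exon bases with Bcl9l on the opposite strand, and the library kit does not mark strand. Bcl9l was at 4.42 to 6.33 FPKM in Gm31629-/- mice and 4.81 to 6.30 in WT mice.

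Ccr7 (ENSMUSG00000037944, chromosome 11, 99144196 to 99155077, minus strand), the receptor of CCL19 and CCL21, was at 6.43, 14.3, and 7.60 FPKM in Gm31629-/- mice and at 0.656, 0.730, and 0.780 FPKM in WT mice. The WT values were nearly equal, and Gm31629-/- mouse 2 was the highest. The means, 9.45 ± 4.26 and 0.722 ± 0.0625 FPKM, were 13.1-fold apart, with a log2 fold change of 2.53 (SE 0.32).

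Ligand and receptor levels were not in a fixed proportion. The ratio of Cxcl13 to Cxcr5 in FPKM was 68.2, 80.4, and 31.8 in Gm31629-/- mice and 6.08, 5.17, and 4.64 in WT mice, so the ligand exceeded its receptor by more in each Gm31629-/- mouse. The ratio of Ccl21a to Cxcl13 was 1.80, 1.19, and 0.984 in Gm31629-/- mice and 0.378, 7.67, and 0.909 in WT mice, with overlapping groups. Ccr7 to Cxcr5, at 4.87, 11.3, and 2.66 against 2.02, 3.13, and 2.44, overlapped as well.

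Madcam1 (ENSMUSG00000020310, chromosome 10, 79664559 to 79668537, plus strand), the addressin of gut venules, was at 10.7, 16.3, and 25.3 FPKM in Gm31629-/- mice and at 0.339, 0.774, and 0.593 FPKM in WT mice. Fragments numbered 283, 433, and 668 against 9, 20, and 16. The group means, 17.5 ± 7.37 and 0.568 ± 0.218 FPKM, were 30.7-fold apart, and the log2 fold change was 3.49 (SE 0.36).

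The receptors of mature B cells and follicular dendritic cells were the lowest and most uneven members in Gm31629-/- mice. Cr2 (ENSMUSG00000026616, chromosome 1, 195136811 to 195176716, minus strand) was at 0.268, 0.154, and 1.01 FPKM in Gm31629-/- mice and at 0.0533, 0.0137, and 0.0656 FPKM in WT mice, with 40, 23, and 151 fragments against 8, 2, and 10. Fcer2a (ENSMUSG00000005540, chromosome 8, 3681737 to 3694175, minus strand) was at 0.562, 0.280, and 2.25 FPKM in Gm31629-/- mice and at 0.175, 0.0898, and 0.258 FPKM in WT mice. Gm31629-/- mouse 3 was the highest for both genes and mouse 2 the lowest, a spread within the group of 6.60-fold for Cr2 and 8.04-fold for Fcer2a. For Fcer2a, Gm31629-/- mouse 2 was 1.09-fold above the highest WT mouse, from 16 fragments against 15, which is within counting error.

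The ratios of means were 10.8 for Cr2 and 5.92 for Fcer2a, with log2 fold changes of 0.46 (SE 0.25) and 0.67 (SE 0.41). Without Gm31629-/- mouse 3 these values were 0.21 and 0.27. Cr2 was the single member under the filter on low values, a mean of at least 0.5 FPKM over the 6 mice. The ratio of Cr2 to Fcer2a was 0.476, 0.548, and 0.450 in Gm31629-/- mice, nearly constant while each gene varied, and 0.305, 0.152, and 0.254 in WT mice.

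Bcl6 (ENSMUSG00000022508, chromosome 16, 23965052 to 23988852, minus strand), the germinal center regulator, which is also made by other cells, had the smallest ratio of means. It was at 2.99, 7.72, and 4.76 FPKM in Gm31629-/- mice and at 1.62, 1.74, and 1.74 FPKM in WT mice, 3.03-fold apart, with a log2 fold change of 1.12 (SE 0.33).

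By mean level, the order in Gm31629-/- mice was Ccl21a, Cxcl13, Madcam1, Ccr7, Bcl6, Ccl19, Cxcr5, Fcer2a, and Cr2. Among neighbors in this order, the ranges of Cxcl13 and Madcam1 and those of Ccl19 and Cxcr5 did not overlap, and the other neighbors overlapped. In WT mice the order was Ccl21a, Bcl6, Cxcl13, Ccr7, Madcam1, Cxcr5, Fcer2a, Cr2, and Ccl19. There the ranges of Cxcl13 and Ccr7, of Madcam1 and Cxcr5, and of Fcer2a and Cr2 did not overlap. The first place of Ccl21a in WT mice came from mouse 2, the WT mouse in which it exceeded Bcl6. By mean, Ccl19 was thus the lowest member in WT mice and stood above the 3 lowest in Gm31629-/- mice. Its WT value rests on a single fragment and its range overlapped that of Cr2, so its place below Cr2 is not settled. Bcl6, near the top in WT mice, was in the middle in Gm31629-/- mice.

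The 5 tested genes whose profile over the 6 mice was most like that of Cxcl13, by the root mean square difference of centered log2(FPKM + 1) values, were Igkv8-30 (0.342), Flna (0.391), Atp12a (0.429), Pcp4l1 (0.432), and Tpm2 (0.473). Igkv8-30, an immunoglobulin light chain segment, was at 62.0 ± 20.8 FPKM in Gm31629-/- mice and 0.985 ± 0.234 in WT mice. Flna encodes filamin A, an actin-binding protein, and was at 136 ± 32.0 and 4.14 ± 0.741 FPKM, and Tpm2 encodes a tropomyosin of muscle. Among the other members the nearest to Cxcl13 was Ccl21a (0.939, rank 128 of the tested genes), followed by Madcam1 (0.966, rank 141). By this measure, many genes outside the follicle list lay closer to Cxcl13 than its fellow members did. The measure depends on the size of the group difference, and the 5 nearest genes had log2 fold changes of 4.72 to 5.90. It therefore cannot show whether the members vary together between mice.

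Other genes of the follicle pathway were read from 7 lists of 86 genes that hold none of the members. Of these, 71 passed the filter, and 48 rose in Gm31629-/- mice (limma, Benjamini-Hochberg adjusted p under 0.05 and log2 fold change above 1), 0 fell, and 23 were not called. Across all tested genes 18.4% were called higher and 4.64% lower, so 79.9% of the calls were upward, and 64.7% were upward after rescaling by the median ratio. The median log2 fold change of the 71 genes was 1.44. The lists were written with earlier results of these data known and are described by their counts.

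**Figure D2:**
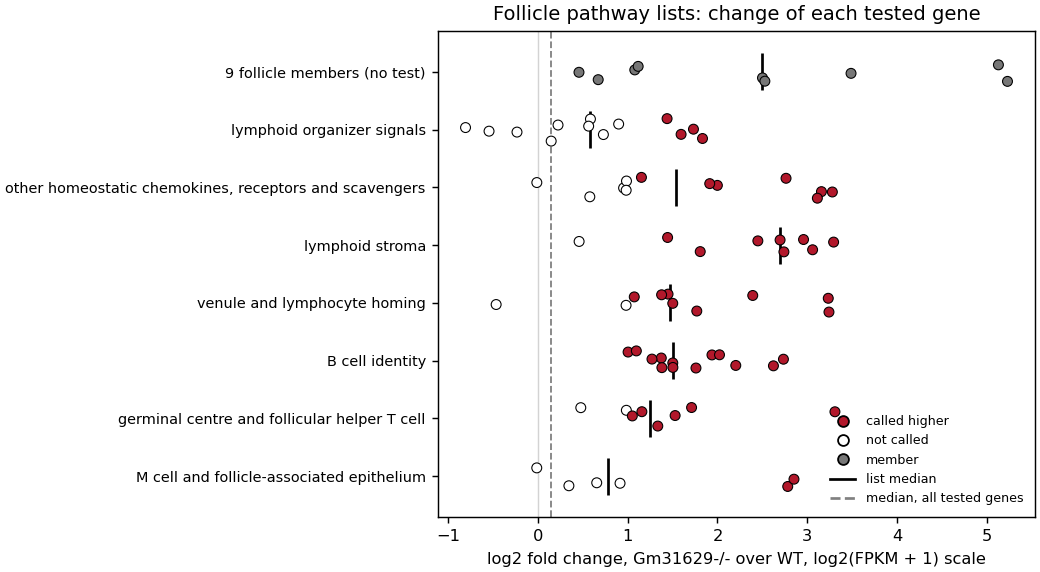
Log2 fold change (Gm31629-/- over WT, log2(FPKM + 1) scale) of each tested gene in 7 pathway lists and of the 9 members, with genes called higher in red, genes not called in white, members in gray, a black bar for the list median, and a dashed line for the median of all tested genes. The lymphoid stroma list has a median of 2.70 and the organizer signals a median of 0.59, and no list gene was called lower.

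Among lymphoid organizer signals, 4 of 13 tested genes rose and the median was 0.59, the lowest of the 7 lists. Ltb, a subunit of the lymphotoxin heterotrimer, was at 10.1, 9.19, and 14.0 FPKM in Gm31629-/- mice and at 2.35, 2.34, and 2.35 FPKM in WT mice (log2 fold change 1.83, limma adjusted p = 0.000599). Il7r, the interleukin 7 receptor, rose by 1.59 (adjusted p = 0.0013). Tnfsf11, which encodes RANKL, rose by 1.73 (adjusted p = 0.0371) but ranged from 0.340 to 5.99 FPKM in Gm31629-/- mice, and its call was lost without any mouse other than Gm31629-/- mouse 1 (adjusted p up to 0.109).

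The lymphotoxin and TNF family receptor genes of the organizer list were not called. Ltbr, the lymphotoxin β receptor, was at 71.3 ± 9.71 FPKM in Gm31629-/- mice and 83.5 ± 3.46 in WT mice (log2 fold change −0.23, adjusted p = 0.238), and Tnfrsf1a, a TNF receptor and the most abundant gene of the list, was at 96.2 ± 36.7 and 62.2 ± 10.3 FPKM (adjusted p = 0.138, and 0.0369 without Gm31629-/- mouse 1). Tnfrsf14 and Tnfrsf11a, other receptor genes of the list, were lower in Gm31629-/- mice, past the adjusted p but under the threshold on size. Their log2 fold changes were −0.81 (adjusted p = 0.0124) and −0.54 (adjusted p = 0.0476). With a mouse left out, the adjusted p stayed under 0.05 in 5 of 6 fits for Tnfrsf14 and in 1 for Tnfrsf11a. Relb and Map3k14, of the noncanonical NF-κB pathway, were higher by 0.73 (adjusted p = 0.0087) and 0.90 (adjusted p = 0.0089), also under the threshold on size. Lta, the other lymphotoxin subunit, was under the filter, at 0.668, 0.118, and 1.61 FPKM against 0.156, 0.161, and 0.269, and its groups overlapped. Ltbr, Tnfrsf14, Tnfrsf11a, Relb, Map3k14, and Lta were named after their values were seen.

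Among other homeostatic chemokines, their receptors, and scavengers, 7 of 12 tested genes rose. Cxcl12, a stromal chemokine, was at 18.2 ± 5.15 FPKM in Gm31629-/- mice and 0.979 ± 0.564 in WT mice (log2 fold change 3.28, adjusted p = 0.00036), and its receptor Cxcr4 rose by 3.16 (adjusted p = 0.000281). Ackr1, a chemokine scavenger of venules, rose by 3.11 (adjusted p = 0.000235). Ccl28, an epithelial chemokine and the most abundant of the list, was at 21.3 ± 3.66 and 10.6 ± 3.67 FPKM and fell short of the threshold on size, with a log2 fold change of 0.98 (adjusted p = 0.0216). With a mouse left out, its adjusted p stayed under 0.05 in 2 of 6 fits. After rescaling by the median ratio it was 0.0595.

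In the lymphoid stroma list 8 of 9 tested genes rose, and its median of 2.70 was the highest of the 7 lists. Enpp2, the lysophospholipase autotaxin of venules and reticular stroma, rose by 3.29 (adjusted p = 0.000139). Fcgr2b, an inhibitory Fc receptor of B cells, macrophages, and follicular dendritic cells, rose by 3.06 (adjusted p = 0.00123), and Pdpn, a marker of reticular stroma and lymphatic endothelium, rose by 2.96 (adjusted p = 0.0036). Mfge8, which follicular dendritic cells and phagocytes secrete, was the most abundant gene, at 55.0 ± 11.8 and 7.30 ± 0.964 FPKM (log2 fold change 2.74, adjusted p = 0.000235). The B cell survival factor gene Tnfsf13b, named after its values were seen, was the gene of this list that was not called (log2 fold change 0.46, adjusted p = 0.115).

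In the venule and lymphocyte homing list 8 of 10 tested genes rose. Nkx2-3, a transcription factor needed for Madcam1 in gut venules, was at 12.2, 28.0, and 24.9 FPKM in Gm31629-/- mice and at 0.870, 2.29, and 0.907 FPKM in WT mice (log2 fold change 3.24, adjusted p = 0.000799). S1pr1, the lymphocyte egress receptor that endothelium also carries, rose by 3.23 (adjusted p = 0.000314). Glycam1, a ligand of L-selectin on high endothelial venules, was at 5.91, 1.30, and 9.67 FPKM in Gm31629-/- mice and at 0, 0, and 0.170 FPKM in WT mice (log2 fold change 2.39, adjusted p = 0.0096). Chst4, a sulfotransferase that acts on such ligands, was the most abundant gene and was not called, at 23.8 ± 0.732 and 33.5 ± 5.08 FPKM (log2 fold change −0.47, adjusted p = 0.0418). With a mouse left out, its adjusted p stayed under 0.05 in 1 of 6 fits and reached 0.14.

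All 13 tested genes of the B cell identity list rose, and all 16 of its genes were separated between the groups, with none at 0 in any library. With a mouse left out, the adjusted p stayed under 0.05 in 3 of 6 fits for Ms4a1 and in 4 for Fcmr. It did so in all 6 fits for the other tested genes of the list. Ms4a1 and Fcmr were named after their values were seen. Cd79a, a chain of the B cell receptor complex and the most abundant gene of the list, was at 19.2, 9.37, and 30.4 FPKM in Gm31629-/- mice and at 2.37, 1.52, and 2.30 FPKM in WT mice (log2 fold change 2.62, adjusted p = 0.00226). Its partner Cd79b rose by 2.74 (adjusted p = 0.0021). The summed level of the 16 genes was 77.8, 49.3, and 111 FPKM in Gm31629-/- mice and 9.08, 7.94, and 13.2 FPKM in WT mice.

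In the germinal center and follicular helper T cell list 6 of 8 tested genes rose, and 7 of the 15 were under the filter. Cd200, an inhibitory surface protein that endothelium and stroma also carry, rose by 3.31 (adjusted p = 0.000487), Tox2 by 1.71 (adjusted p = 0.000938), and Pdcd1, which encodes PD-1, by 1.53 (adjusted p = 0.0061). Fas was the most abundant gene and was not called (adjusted p = 0.196). Il21, a cytokine of follicular helper T cells, was close to the detection limit, at 0.0518 to 0.103 FPKM in Gm31629-/- mice and at 0 in WT mice, and was named after its values were seen. The list had 3 genes called without WT mouse 1 and 3 without WT mouse 3.

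In the list of M cells and follicle-associated epithelium, the covering layer of intestinal follicles, 2 of 6 tested genes rose. Gp2, the uptake receptor of M cells, was at 8.21, 1.90, and 21.5 FPKM in Gm31629-/- mice and at 0.216, 0.250, and 0.213 FPKM in WT mice (log2 fold change 2.78, adjusted p = 0.0134). The Gp2 call was lost without WT mouse 3 (adjusted p = 0.0508), which left 1 call in the list. Tnfaip2, which macrophages and endothelium also make, rose by 2.85 (adjusted p = 0.0038), and Marcksl1, the most abundant gene, was at 222 ± 193 and 86.5 ± 19.8 FPKM and was not called (adjusted p = 0.302), although it was without Gm31629-/- mouse 1 (adjusted p = 0.0155).

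The members split into sets by which Gm31629-/- mouse was highest. Cr2, Fcer2a, and Cxcr5 were highest in mouse 3 and lowest in mouse 2, an order found in 8.96% of all tested genes. That order was found in 13 of 16 B cell identity genes, 3 of 10 epithelial markers, and 2 of 7 plasma cell markers. Lists with fewer such genes were organizer signals (2 of 15), other homeostatic chemokines (2 of 13), and the germinal center list (1 of 15). M cell genes (1 of 7, Gp2) and venule and homing genes (1 of 11, Glycam1) also had it. For Cxcr5 mice 1 and 2 differed by 81 against 78 fragments, which is within counting error. Ccl19 and Madcam1 were also highest in mouse 3 but lowest in mouse 1. Cxcl13, Ccr7, and Bcl6 were highest in mouse 2 and lowest in mouse 1, an order found in 22.9% of tested genes. It was found in 6 of 6 blood endothelium markers, 6 of 7 fibroblast markers, and 6 of 9 lymphoid stroma genes. It was also found in 4 of 6 dendritic cell, 5 of 8 macrophage, and 3 of 5 adipocyte markers and in 8 of 15 organizer signals. The share was lower in the other lists, among them 2 of 16 B cell identity genes and 0 of 8 smooth muscle markers. For Cxcl13 mice 1 and 3 differed by 1906 against 1923 fragments, again within counting error.

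Ccl21a, by contrast, was highest in mouse 1 and lowest in mouse 3, an order shared by 5 of 5 lymphatic endothelium markers, by 6 of 8 T cell markers, by 5 of 8 smooth muscle markers, and by 23.1% of tested genes. The summed level of the 5 lymphatic markers was 39.6, 18.8, and 9.76 FPKM in Gm31629-/- mice 1 to 3. Lyve1, the most abundant of them, was at 25.7, 11.0, and 6.17 FPKM in those mice and at 0.574, 1.27, and 0.620 FPKM in WT mice. In WT mice, Ccl21a was highest in mouse 2, as were 35.7% of tested genes. So were 4 of 5 lymphatic endothelium, 6 of 6 blood endothelium, and 7 of 8 smooth muscle markers. The same held for 6 of 7 fibroblast, 6 of 8 macrophage, and 8 of 10 epithelial markers. It held for 0 of 8 T cell markers and 0 of 16 B cell identity genes. These orders rest on 3 mice, were looked for after the values were seen, and were not tested.

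Markers of other cell types differed between the groups in the same libraries, and their part in the levels of the members was not tested. The 8 smooth muscle markers summed to 1138 to 1735 FPKM in Gm31629-/- mice and to 9.17 to 26.7 FPKM in WT mice, 7 of 8 rose, and their median log2 fold change of 6.16 exceeded the value of every member. Acta2, smooth muscle actin, was at 557.5 ± 95.5 and 8.25 ± 5.17 FPKM. The 10 epithelial markers summed to 6584 to 7970 FPKM in Gm31629-/- mice and to 11064 to 12060 FPKM in WT mice, 4 fell and 0 rose, with Krt8 at 2042 ± 353 and 4198 ± 137 FPKM.

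Stromal and vascular lists were higher in all Gm31629-/- mice. Fibroblast markers summed to 167 to 499 FPKM against 18.7 to 37.0, and 7 of 7 rose, with Col3a1 at 94.3 ± 50.2 against 6.57 ± 2.90 FPKM. Blood endothelium markers summed to 86.1 to 264 FPKM against 8.04 to 18.3, and 6 of 6 rose, with Plvap at 133 ± 71.0 against 8.74 ± 3.98 FPKM. Lymphatic endothelium markers summed to 9.76 to 39.6 FPKM against 0.786 to 2.07, and all 3 tested rose.

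Immune lists were higher as well, to unequal degrees. Macrophage markers summed to 576 to 1346 FPKM against 94.5 to 104 (7 of 8 rose, Lyz2 at 404 ± 195 against 27.7 ± 5.59 FPKM), neutrophil markers to 457 to 1021 FPKM against 69.8 to 127 (5 of 5 rose, Ly6g at 616 ± 339 against 89.7 ± 28.4 FPKM), and dendritic cell markers to 6.53 to 16.9 FPKM against 1.20 to 1.54 (1 of 1 tested rose, Itgax). Ly6g made up most of the neutrophil sum in every library, whereas S100a8, named after its values were seen, was at 29.1 ± 15.6 against 0.831 ± 0.458 FPKM. Of the 5 neutrophil markers, 2 were highest in Gm31629-/- mouse 1, 2 in mouse 2, and 1, Ly6g, in mouse 3. Plasma cell markers summed to 349 to 586 FPKM against 220 to 223, and 3 of 7 rose, with Jchain at 249 ± 81.0 against 14.8 ± 4.31 FPKM. Most of the WT sum came from Sdc1 and Xbp1, named after their values were seen, and neither was called. Sdc1 was at 77.8 ± 31.6 against 106 ± 9.64 FPKM (adjusted p = 0.219). Xbp1 was at 104 ± 22.2 against 96.1 ± 7.16 FPKM (adjusted p = 0.697). T cell markers, at 17.1 to 28.8 FPKM against 6.42 to 10.0, had 3 of 8 called higher, and the most abundant, Lck, was not called (adjusted p = 0.123).

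Among mesothelial markers, 2 of 2 tested genes rose, and the list had sums of 3.04 to 36.4 FPKM against 0.552 to 1.08. The most abundant, Msln, was at 14.1 ± 10.9 against 0.856 ± 0.279 FPKM (adjusted p = 0.0157) and lost its call without WT mouse 1 (0.0552) or WT mouse 3 (0.0531). The call of the other, Upk3b (adjusted p = 0.0492), was lost in 5 of the 6 fits that left out a mouse (adjusted p up to 0.127). Wt1, a defining mesothelial gene, was at 0.711, 1.27, and 0.0088 FPKM in Gm31629-/- mice and at 0 in the 3 WT libraries. Upk3b and Wt1 were named after their values were seen. Adipocyte markers summed to 54.0 to 128 FPKM against 10.0 to 20.1, and 3 of 4 tested rose. Cidec, the most abundant, was at 29.8 ± 9.85 against 13.5 ± 3.50 FPKM (adjusted p = 0.0237), a call lost without Gm31629-/- mouse 1, Gm31629-/- mouse 2, WT mouse 1, or WT mouse 3 (adjusted p up to 0.0769). Within the Gm31629-/- group, mouse 2, with the highest Cxcl13, Ccr7, and Bcl6, had the highest mesothelial and adipocyte sums. Mouse 3, with the highest Cr2, Fcer2a, Cxcr5, Ccl19, and Madcam1, had the lowest mesothelial sum. The adipocyte sums of mice 1 and 3 were nearly equal, at 55.7 and 54.0 FPKM. Of the 5 adipocyte markers, 3 were lowest in mouse 1 and 2 in mouse 3. The part of mesothelial and adipose tissue in the members' levels was not tested.

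**Figure D3:**
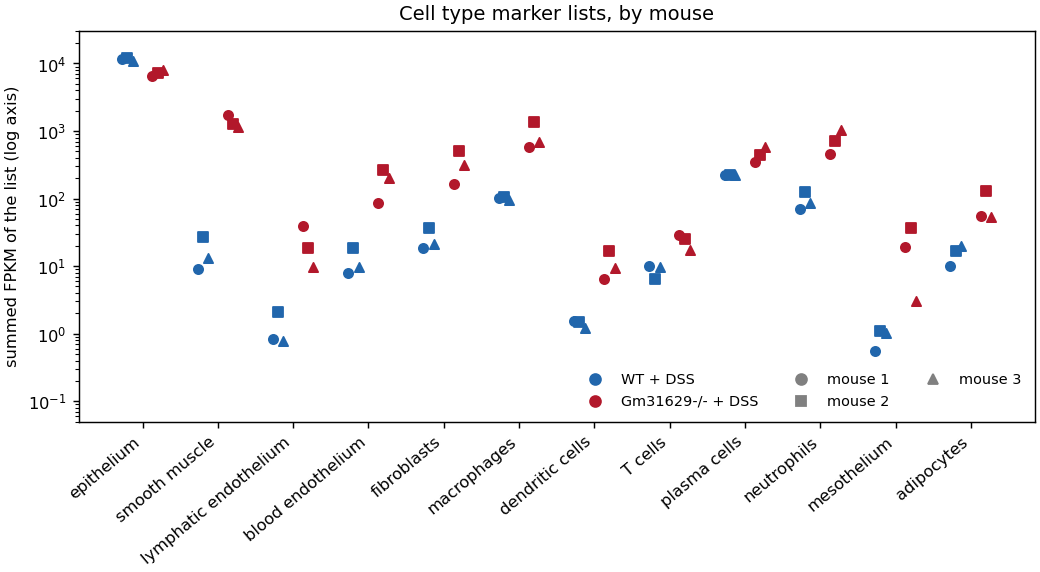
Summed FPKM (log axis) of 12 lists of cell type markers in each mouse, with WT mice in blue, Gm31629-/- mice in red, and a symbol shape for each mouse. Smooth muscle is at 1138 to 1735 FPKM in Gm31629-/- mice and 9.17 to 26.7 FPKM in WT mice, and epithelium is the list that is lower in Gm31629-/- mice.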

How the data were processed

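Distal colon of 3 Gm31629-/- and 3 WT mice under DSS was profiled by RNA-Seq. The table that the authors deposited holds an FPKM value of each of 27546 genes in each mouse, and the methods describe the RNAs as pooled although each mouse has its own values. The submitters' processing notes name HISAT2 2.1.0, HTSeq 0.6.0, and GRCm38. Because FPKM values divide fragments by gene length and depth, fragments were recovered from the size of 1 fragment with exon lengths of GENCODE M21, which matched 27488 genes. Between 96.3% and 97.2% of a library's values of at most 20 fragments came out whole to within 0.1. Nothing in the sources used here gives the annotation behind the deposited values.

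Groups and mouse numbers were taken from the labels. Genes with a mean of at least 0.5 FPKM were tested by a moderated linear model on log2(FPKM + 1) in R 4.3.3, using lmFit and a trended eBayes of limma 3.58.1. The p-values of the 14657 genes were adjusted by the Benjamini-Hochberg method, and calls needed an adjusted p under 0.05 together with an absolute log2 fold change above 1. The p-values measure the spread between these mice. With 3 against 3 mice, an exact permutation test of a single gene cannot go below p = 0.10. The members and lists were chosen with earlier results of these data known. Named genes are the 9 members, the 3 called genes with the largest change and the most abundant gene of each pathway list, the most abundant gene of each marker list, the 5 genes most like Cxcl13, and genes said to be chosen later, and 1 gene that this rule picks is not reported here. Scripts were tested on simulated data. The alternatives were no filter, a mean of at least 5 FPKM, a pseudocount of 0.1, rescaling to the same FPKM sum or by the median ratio, an untrended eBayes, a block for the mouse number, omission of each mouse in turn, and, chosen after seeing the data, limma's voom on the recovered fragments. The authors' own test, DEGseq, was not repeated. Promoter windows are from RefSeq. Figures were drawn with matplotlib 3.10.9.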

Additional observations from a re-analysis of the deposited data

How the results depend on the processing

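The 9 members lay above all WT values under each alternative that gave this value except rescaling by the median ratio, where 8 did, and their median log2 fold change was 3.45 with a pseudocount of 0.1. The count of 48 pathway genes called higher became 21 when a mean of at least 5 FPKM was required, where 956 of all genes were called higher, because fewer genes were tested. Rescaling by the median ratio gave 44 pathway genes higher and 1 lower, with 2232 and 1217 of all genes, against 48 and 0 and 2704 and 680. With any mouse left out, 41 to 49 pathway genes were higher and 0 to 0 lower, 2285 to 2892 of all genes were higher and 513 to 766 lower, 9 members lay above all WT values, and the members' median was 2.21 to 2.74. With the mouse number as a replicate block, 47 pathway genes were higher and 0 lower, with 2709 and 648 of all genes, and the deviations of equal-numbered mice correlated at 0.0358, −0.108, and 0.0141, so the mice share only a number. Voom on the recovered fragments gave 55 pathway genes higher, among them all 48, and 0 lower, with 3644 and 994 of all genes. Without a filter the calls of Tnfsf11 (adjusted p = 0.0767) and Krt8 (adjusted p = 0.0891) were lost. Depth limits Cr2, Fcer2a, Ccl19 in WT mice, and the genes under the filter, whose values rest on few fragments, and these limits cover counting error only.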
